A study of Mus musculus with 16 samples.

Results

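The 10 genes described here, Dbp, Nr1d1, Nr1d2, Per1, Per2, Per3, Ciart, Arntl, Bhlhe41 and Tef, belong to the circadian clock and its first outputs. They were taken by gene symbol from tables of 21878 mRNAs, and all 10 were found. The libraries came from cells sorted as CD11b+/CD45int microglia from the brains of 16 wild-type female C57BL/6 mice. Their age is given as 8 weeks, and the harvest followed later, after the disease had been induced. In 8 of the mice, experimental autoimmune encephalomyelitis (EAE) had been induced with a peptide of myelin oligodendrocyte glycoprotein (MOG) in complete Freund's adjuvant. They also received repeated doses of pertussis toxin of 200 ng each. The other 8 mice were treated with PBS (phosphate-buffered saline). The mice were killed at the peak of disease, and the time of day of the harvest is not given in the sources used here. The protocol names MOG residues 35 to 55, whereas the treatment label of EAE 1 ends at residue 55 and that of EAE 8 at residue 62. Each library is 1 mouse, and libraries are named by group and replicate number.

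The clock of mammalian cells is a feedback loop of transcription. ARNTL (also called BMAL1) pairs with CLOCK and binds E-boxes, short DNA elements, in the Per, Cry, Nr1d, Dbp and Ciart genes, and the PER, CRY and CIART proteins then hold the pair back. NR1D1 and NR1D2 (the REV-ERB proteins) repress Arntl through ROR elements, so that in mouse tissues Arntl RNA is high when Nr1d1 and Dbp RNA are low. DBP and TEF carry the rhythm onward as activators at D-boxes, a further short element found in genes such as Per3, and BHLHE41 (DEC2) is a repressor at E-boxes. In mice, the RNA of Nr1d1 and Dbp peaks in the light phase and that of Per2 near dusk, and levels of these genes in a tissue therefore depend on the hour of harvest. Per1 is in addition an immediate responder to glucocorticoids and to cell activity.

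The promoter windows of these genes show which elements stand next to their starts. RefSeq windows of 300 bases (250 before to 50 after an annotated start, GRCm38.p6) existed for 9 of the 10 genes, with 12 windows among them. Motifs were searched on both strands, and none of those named here overlapped another. The E-box CACGTG was found in 5 of the 12 windows, in Ciart, Bhlhe41, Per1 and both windows of Tef, against 7.15% of all 32851 windows. Ciart held 3 of them, at 116, 58 and 44 bases before its start. The stretch below runs over chr3:95882264-95882478 on the minus strand, with the E-boxes in capitals, and it is shown because no other window of the 9 genes held more than 1 E-box.
Ciart: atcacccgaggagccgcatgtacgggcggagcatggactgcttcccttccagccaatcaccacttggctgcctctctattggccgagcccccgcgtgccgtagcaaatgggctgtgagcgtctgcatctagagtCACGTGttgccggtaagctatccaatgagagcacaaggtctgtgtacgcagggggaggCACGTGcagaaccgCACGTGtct

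The D-box, searched as TTATGTAA or TTACGTAA, was found in 1.06% of all windows and in 1 of the 9 genes, Per3. The Per3 window held it at 205 and at 158 bases before the start, both times as TTATGTAA. The stretch below covers chr4:151044716-151044915 on the minus strand, with the D-boxes in capitals, and is shown because Per3 had the smallest p-value of the 10 genes.
Per3: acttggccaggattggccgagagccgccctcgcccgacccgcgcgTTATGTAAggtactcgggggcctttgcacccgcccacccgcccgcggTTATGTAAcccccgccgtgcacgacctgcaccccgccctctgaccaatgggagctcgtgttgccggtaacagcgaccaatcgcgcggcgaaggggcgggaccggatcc

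The letters AAAGTAGGT, which begin a ROR element, were found in 0.183% of all windows. Of the 9 genes only Arntl held them, in 2 places near its starts. Both are shown on the plus strand with these letters in capitals, since Arntl was the gene that ran against Nr1d1 and Dbp across the libraries. The first lies at chr7:113207493-113207519 and the second at chr7:113207529-113207555.
Arntl first: ttggtcggAAAGTAGGTtagtggtgcg
Arntl second: gaaggcagAAAGTAGGTcagggacgga

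The E'-box CACGTT was found in 4.68% of all windows and, of the 9 genes, in Nr1d1 alone. The cAMP element TGACGTCA was in 1.79% of all windows and in 0 of the 12 windows. A match is a match of letters in these windows, and binding was not measured.

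**Figure D1:**
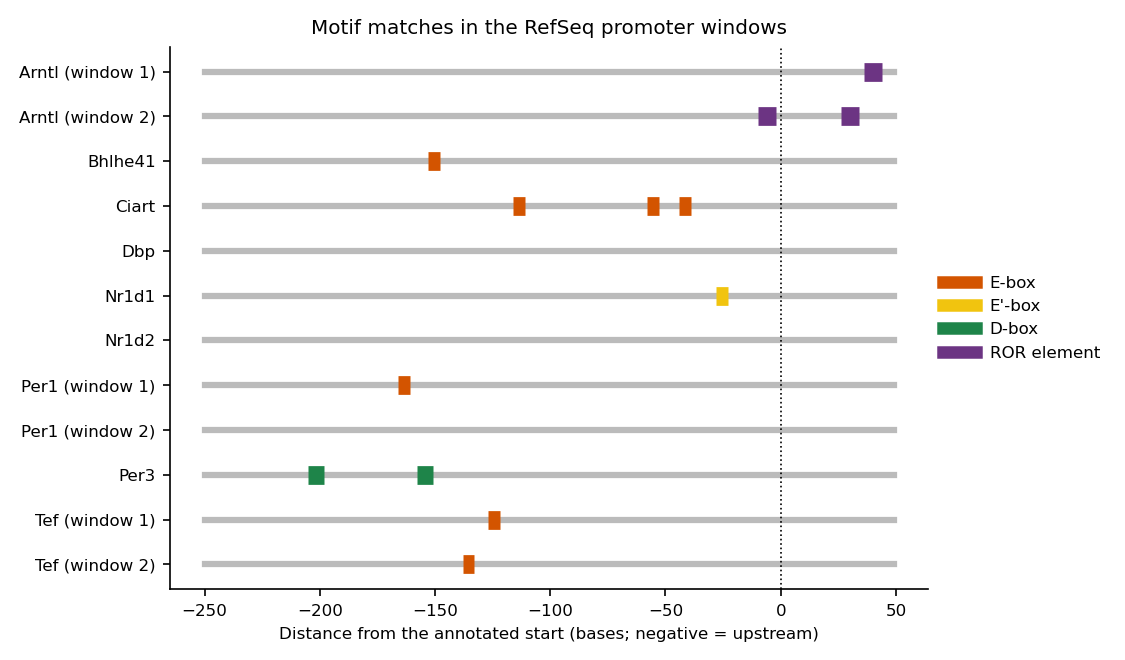
Motif matches in the 12 RefSeq promoter windows of 9 clock genes, with the distance in bases from the annotated start on the horizontal axis and 1 grey line per window. Coloured blocks mark E-boxes (orange), the E'-box (yellow), D-boxes (green) and ROR element letters (purple), with 3 E-boxes in Ciart, 2 D-boxes in Per3 and purple blocks in Arntl windows only.

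The EAE libraries held 24587443 to 30244215 counts and the PBS libraries 26031889 to 34184576 counts, and every clock gene had at least 375 counts in every library. Replicate numbers divided the libraries in both groups, since numbers 1 to 4 had 17565 to 17644 mRNAs detected for EAE and 17405 to 17609 for PBS, while numbers 5 to 8 had 17955 to 18042 and 17831 to 17922, respectively. The ranges did not overlap, and what the numbers stand for is not given in the sources used here. The deposited FPKM values (fragments scaled by transcript length and library size) are a level per length and can be compared between genes. The sorted cells were checked against 10 microglia markers, all of which were detected. In sum they came to 101 to 158 FPKM for EAE and 87.6 to 148 FPKM for PBS. The summed level of 10 neuron markers was 1059 to 1275 FPKM and 1207 to 1351 FPKM, respectively, and that of 8 astrocyte markers was 1166 to 1782 FPKM and 1357 to 1610 FPKM. For 8 oligodendrocyte markers the sum was 912 to 1283 FPKM for EAE and 1002 to 1228 FPKM for PBS. The markers thus do not bear out RNA of microglia alone, and the clock values are not assigned to microglia. Of the 10 microglia markers, 1 was called higher in EAE mice and 0 lower, against 0.660% and 1.76% of all mRNAs. A positive log2FC was fitted for 9 of them. The gene called was Trem2, a microglial lipid receptor (log2FC 0.56, SE 0.13, adjusted p = 0.0282 in the edgeR test). This call of Trem2 was lost within the 6 libraries most alike, which are described with Per3 (log2FC 0.32, adjusted p = 0.0729 in edgeR), and within the remaining 5 libraries of each group (log2FC 0.67). Of the 10 neuron markers, 0 were called higher and 2 lower, and 9 had a negative log2FC. Gad1, an enzyme of inhibitory neurons, was lower (log2FC −0.53, SE 0.09, adjusted p = 0.00309 in the edgeR test). Gad2, another of the neuron markers, was not called (log2FC −0.12, adjusted p = 0.451 in the edgeR test). Fewer cells of a type and less RNA per cell cannot be told apart in these bulk libraries. The part of other cell types in the clock values was not tested.

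Tef had the highest level of the 10 genes, with 75.0 ± 5.20 FPKM (SD over the 16 libraries). It was followed by Nr1d1 with 30.3 ± 3.84 FPKM, Per1 with 21.7 ± 3.54 FPKM and Nr1d2 with 21.0 ± 1.24 FPKM. Below them lay Per3 with 17.1 ± 2.33 FPKM, Dbp with 14.0 ± 1.96 FPKM and Bhlhe41 with 11.9 ± 1.22 FPKM. The lowest levels were those of Per2 with 8.96 ± 1.24 FPKM, Arntl with 8.54 ± 0.688 FPKM and Ciart with 7.86 ± 1.43 FPKM. Only Tef was separated from its neighbour in this order by range, since its lowest library lay above the highest of Nr1d1. Compared within each library, Bhlhe41 was above Per2 in all 16. Nr1d1 was above Per1 and Nr1d2 above Per3 in 15 of 16 libraries, and Per3 above Dbp and Dbp above Bhlhe41 in 14. Per1 was above Nr1d2 in 9 of 16 libraries, Per2 above Arntl in 8 and Arntl above Ciart in 8, so these neighbours did not differ beyond their spread.

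In the comparison of EAE mice with PBS-treated mice, none of the 10 clock genes was called higher or lower. The edgeR quasi-likelihood test was fitted on the 17885 mRNAs whose counts summed to 16 or more, and an mRNA was called at a Benjamini-Hochberg adjusted p under 0.05. By this rule 0 of 10 clock genes were higher, against 0.660% of all mRNAs, and 0 of 10 were lower, against 1.76% of all mRNAs. Before adjustment, 1 of the 10, Per3, had a p under 0.05, against 17.4% of all mRNAs. With DESeq2, 1 of 10 was called higher, again Per3, against 1.89% of all mRNAs, and 0 of 10 lower, against 3.85%. With limma on log2(FPKM + 0.1), 0 of 10 were called higher, against 0.738% of all mRNAs, and 0 of 10 lower, against 0.408%. The fitted log2FC (log2 fold change of EAE over PBS) was positive for 6 clock genes and negative for 4, with a median of 0.02, and the median over all mRNAs tested was 0.01. The median size of the log2FC without its sign was 0.05 for the clock genes and 0.11 for all mRNAs. The 95% intervals of the 10 fold changes all lay between 0.786-fold and 1.33-fold. FPKM values overlapped between the groups for all 10 genes. The share of all mRNAs with such an overlap was not counted, so it cannot be called particular to the clock genes.

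**Figure D2:**
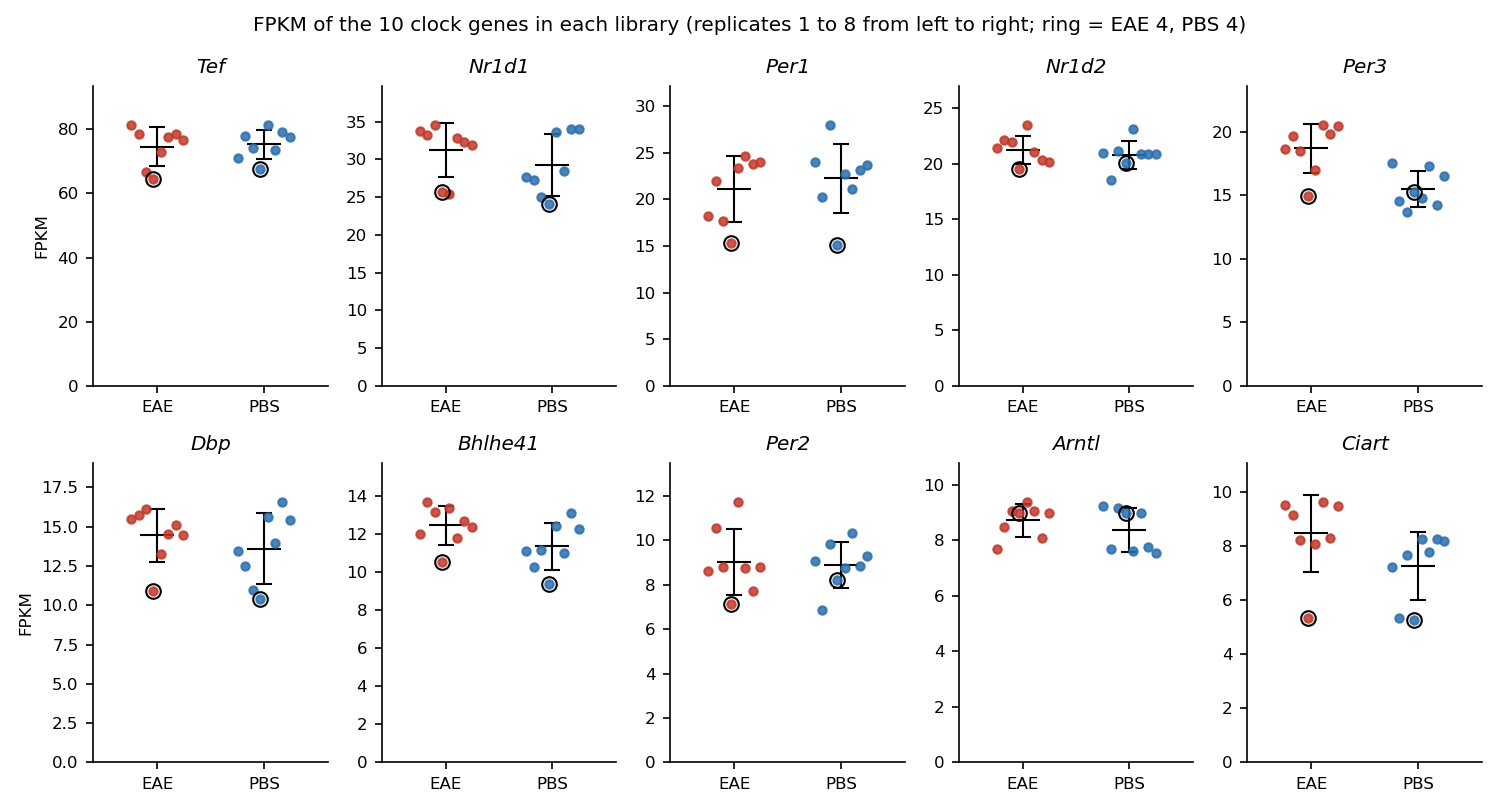
FPKM (vertical axis, from 0) of each of the 10 clock genes in the 8 EAE libraries (red) and the 8 PBS libraries (blue), 1 point per library, with the mean and SD as black bars and rings around EAE 4 and PBS 4. The groups overlap in every panel, and the ringed libraries are at or near the bottom of their group for Dbp, Nr1d1, Per1, Ciart, Bhlhe41 and Tef but not for Arntl.

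Of the period genes, which encode the inhibitors of the loop, Per3 had 14.9 FPKM in the lowest EAE library, a median of 19.2 FPKM and 20.5 FPKM in the highest. In PBS libraries the values of Per3 were 13.7, 15.1 and 17.5 FPKM in the same order. Thus 6 of the 8 EAE libraries lay above every PBS library, while EAE 4 and EAE 5 lay within the PBS range. The mean of Per3 was 18.7 ± 1.92 FPKM (SD, n = 8) for EAE and 15.5 ± 1.44 FPKM for PBS. The log2FC of Per3 was 0.22 (SE 0.06, 95% interval 0.09 to 0.36, unadjusted p = 0.00245 and adjusted p = 0.0707 in the edgeR test). In the exact two-sided permutation test of the FPKM values, run for each of the 10 genes, Per3 had an unadjusted p of 0.00389, and the other p-values ranged from 0.0682 for Bhlhe41 to 0.853 for Per2. Per3 lies at 151003652–151044665 on chromosome 4, and its annotated span shares bases with that of Camta1 on the same strand. How reads in the shared part were counted is not given in the sources used here.

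The call of Per3 depended on the setting and on the libraries. Its adjusted p was 0.0318 with DESeq2 and 0.0385 in edgeR on library totals alone, where 1.26% of all mRNAs were called higher. In edgeR without EAE 4 it was 0.00677, with 2.81% of all mRNAs called higher, and without EAE 5 it was 0.0388, with 1.64%. With a term in edgeR for the 6 libraries described next, it was 0.0482, with 1.35% of all mRNAs called higher. Over all alternatives it ranged from 2.61e-07 to 0.698, and the log2FC was positive in each of them. These 6 libraries, EAE 6, 7 and 8 with PBS 5, 7 and 8, had been found most alike in earlier results of these data. Picking libraries for likeness can narrow the spread within groups, so p-values among them are descriptions and not tests. Among them alone the log2FC of Per3 was 0.39 (adjusted p = 2.61e-07 in edgeR). There 35.5% of all mRNAs had an unadjusted p under 0.05 in edgeR, against 17.4% over all 16 libraries. In that fit 11.0% of all mRNAs were called higher, and of the clock genes Per3 and Arntl were (Arntl log2FC 0.16, adjusted p = 0.0466 in edgeR). Within the remaining 5 libraries of each group the log2FC of Per3 was 0.11 (adjusted p = 0.698 in edgeR), and that of Arntl was −0.08. The difference between these sets of libraries was not tested. With a term for replicate numbers 1 to 4 against 5 to 8, the log2FC of Per3 was 0.22 (adjusted p = 0.0626 in edgeR), with 0.760% of all mRNAs called higher. Among numbers 1 to 4 alone it was 0.16 (adjusted p = 0.532 in edgeR), with 0.0579% called higher, and among numbers 5 to 8 alone it was 0.28 (adjusted p = 0.135 in edgeR), with 0.0971%. None of the 10 clock genes was called in these 3 fits, which were chosen after the data were seen.

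Per2 had 7.15 FPKM in the lowest EAE library, a median of 8.78 FPKM and 11.8 FPKM in the highest, and the PBS values were 6.87, 8.96 and 10.3 FPKM. Its 2 highest libraries were EAE 5 and EAE 2, and the other 6 EAE libraries lay within the PBS range. The log2FC of Per2 was −0.03 (95% interval −0.21 to 0.15). Per1 had 15.3, 22.7 and 24.6 FPKM in the lowest, median and highest EAE library and 15.2, 22.9 and 28.0 FPKM in PBS libraries. The lowest library of Per1 in each group was replicate 4, and PBS 3 was the highest of all 16. The log2FC of Per1 was −0.13 (SE 0.11, 95% interval −0.35 to 0.10), the most negative of the 10 genes.

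Ciart, a repressor of the CLOCK and ARNTL pair, had 5.35 FPKM in the lowest EAE library, a median of 8.70 FPKM and 9.64 FPKM in the highest. The PBS values of Ciart were 5.26, 7.73 and 8.28 FPKM. EAE 4, PBS 2 and PBS 4 lay far below the other 13 libraries, and 5 of 8 EAE libraries were above every PBS library. Its log2FC was 0.17 with the widest 95% interval of the 10 genes, from −0.06 to 0.41 (adjusted p = 0.461 in edgeR). With 375 to 761 counts per library, Ciart was the least deeply covered of the 10 genes. It overlaps C920021L13Rik on the opposite strand.

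Of the REV-ERB genes, Nr1d1 had 25.4 FPKM in the lowest EAE library, a median of 32.6 FPKM and 34.6 FPKM in the highest. The PBS values of Nr1d1 were 24.1, 28.1 and 34.0 FPKM. In each group a few libraries lay near 25 FPKM (EAE 4, EAE 5, PBS 3 and PBS 4), whereas PBS 5, 7 and 8 lay with the higher EAE libraries. The log2FC of Nr1d1 was 0.04 (95% interval −0.13 to 0.21). Nr1d2 was the steadiest of the 10 genes, with 19.5 to 23.5 FPKM for EAE and 18.6 to 23.1 FPKM for PBS. The log2FC of Nr1d2 was −0.02, and its 95% interval of −0.11 to 0.08 was the narrowest of the 10 genes. Nr1d1 overlaps Thra, the thyroid hormone receptor gene, on the opposite strand.

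Arntl, the activator of the loop, had 7.67 FPKM in the lowest EAE library, a median of 8.98 FPKM and 9.39 FPKM in the highest. The PBS values of Arntl were 7.53, 8.38 and 9.22 FPKM. PBS libraries fell into a lower set (PBS 2, 5, 7 and 8) and a higher set (PBS 1, 3, 4 and 6) with no library between PBS 7, at 7.77 FPKM, and PBS 4. The log2FC of Arntl was 0.01 (95% interval −0.12 to 0.13).

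Of the D-box activators, Dbp had 10.9 FPKM in the lowest EAE library, a median of 14.8 FPKM and 16.1 FPKM in the highest. The PBS values of Dbp were 10.4, 13.7 and 16.6 FPKM. EAE 4, PBS 3 and PBS 4 were its lowest libraries, and PBS 7 was the highest of all 16. By replicate number, Dbp had 11.8 ± 1.39 FPKM (SD, n = 4) in PBS 1 to 4 and 15.4 ± 1.09 FPKM in PBS 5 to 8, against 14.6 ± 2.46 FPKM in EAE 1 to 4 and 14.3 ± 0.764 FPKM in EAE 5 to 8. The log2FC of Dbp was 0.04 (SE 0.09, 95% interval −0.15 to 0.23), with 0.22 among numbers 1 to 4 and −0.13 among numbers 5 to 8. Tef had 64.5, 77.1 and 81.3 FPKM in the EAE group and 67.7, 75.9 and 81.3 FPKM in the PBS group, with a log2FC of −0.06 (95% interval −0.17 to 0.05). Bhlhe41, the E-box repressor, had 10.5, 12.5 and 13.7 FPKM in the EAE group and 9.37, 11.1 and 13.1 FPKM in the PBS group, with a log2FC of 0.08 (95% interval −0.05 to 0.22). Replicate 4 was the lowest library of its group for both Tef and Bhlhe41. Dbp overlaps Sphk2 on the opposite strand.

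The other 19 clock genes of a list of loop components, kinases and ligases gave the same count. Of these, 0 were called higher and 0 lower with edgeR, while 2 had a p under 0.05 before adjustment. These were Arntl2, a paralog of Arntl (log2FC 0.22, adjusted p = 0.177 in edgeR), and Hlf, the third activator at D-boxes (log2FC −0.12, adjusted p = 0.221 in edgeR). Clock, the partner of ARNTL, had 16.2 ± 1.29 FPKM (SD, n = 8) for EAE and 15.1 ± 1.14 FPKM for PBS. Its paralog Npas2 had 16.1 ± 0.650 FPKM and 15.3 ± 1.01 FPKM, respectively. The cryptochromes, which act with the PER proteins, differed in level, with 42.2 ± 4.02 FPKM for EAE and 41.0 ± 5.55 FPKM for PBS for Cry2 and 7.34 ± 1.68 FPKM and 7.60 ± 1.10 FPKM for Cry1. The log2FC of Cry1 was −0.10 with a wide 95% interval of −0.35 to 0.15. Nfil3, a repressor at D-boxes, had a log2FC of −0.07, Rora, an activator at ROR elements, had 0.03, and Bhlhe40, the paralog of Bhlhe41, had 0.07. The median log2FC of the 19 genes was 0.02.

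**Figure D3:**
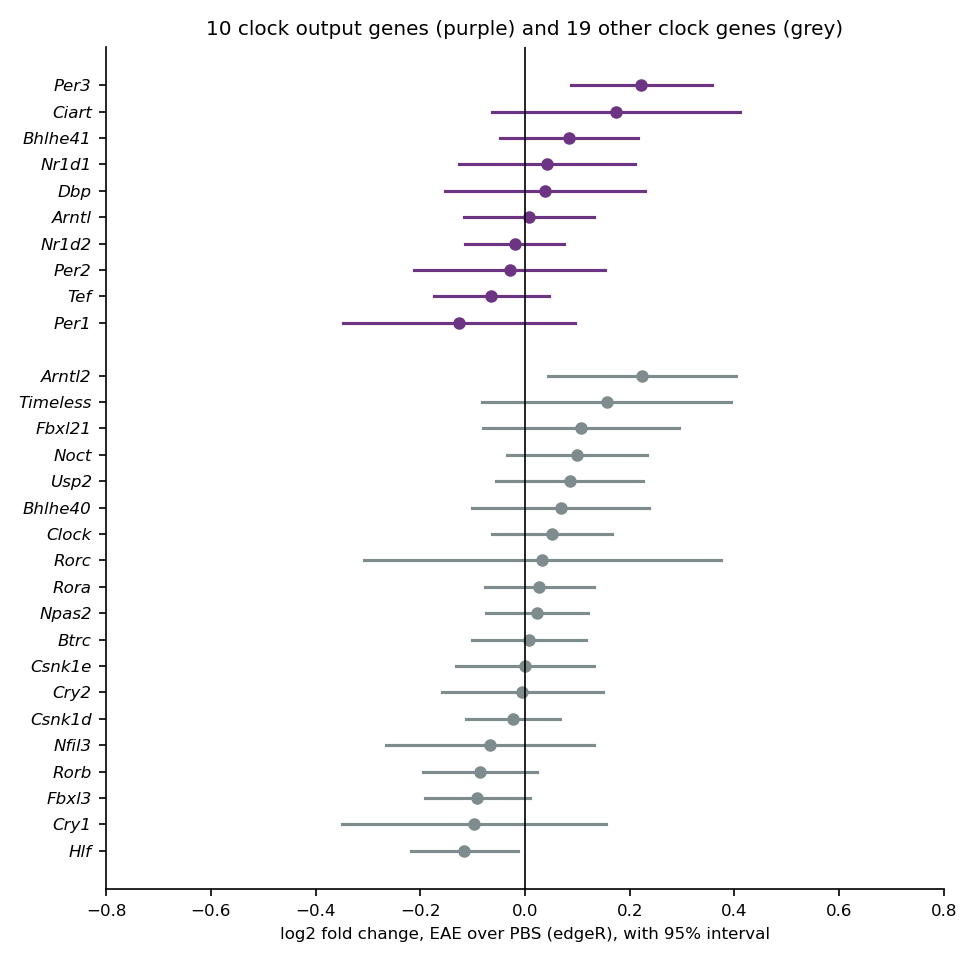
Log2 fold change of EAE over PBS from edgeR (horizontal axis) with its 95% interval for the 10 clock output genes (purple) and the 19 other clock genes (grey), each in order of the fold change. The intervals of Per3 and Arntl2 lie above 0, that of Hlf lies below 0, and all others include 0.

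Genes of other kinds that can move clock outputs were counted from lists of the same fit. The counts of these lists and of the marker lists are to be read beside those of all mRNAs tested, of which 0.660% were called higher and 1.76% lower, 17.4% had a p under 0.05 before adjustment, and 8468 of 17885 had a negative log2FC. Of 10 immediate early genes, which respond to cell activity, 0 were called and 0 had a p under 0.05 before adjustment. Of 10 glucocorticoid-responsive genes, 0 were called higher and 2 lower, and all 10 had a negative log2FC, with a median of −0.17. The lower genes were Pdk4, a kinase that restrains pyruvate oxidation (log2FC −0.47, SE 0.11, adjusted p = 0.0255 in edgeR), and Ddit4, an inhibitor of mTORC1 (log2FC −0.35, SE 0.09, with an adjusted p just under the threshold in edgeR). With single libraries left out, Ddit4 was still called in 3 of 16 fits and Pdk4 in 10. Of 8 temperature-responsive genes, 1 was lower, Hspa8, a constitutive chaperone (log2FC −0.28, SE 0.06, adjusted p = 0.0175 in edgeR). The part of these genes' regulators in the clock values was not tested.

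The remaining lists held markers of cell types. Of 8 neutrophil markers, 4 were higher in EAE mice, S100a8, S100a9, Ngp and Ltf, with log2FC values of 1.33 to 1.87, and all 8 summed to 23.1 to 64.1 FPKM per EAE library against 9.31 to 24.0 FPKM per PBS library. Of 8 astrocyte markers, 1 was called higher and 0 lower, 7 had a negative log2FC, 6 had a p under 0.05 before adjustment, and the median log2FC was −0.21. The gene called was Gfap, the astrocyte filament gene (log2FC 0.50, adjusted p = 0.0312 in edgeR), which was at −0.047 within the 6 libraries most alike. Of 10 neuron markers, Gad1 and Syt1 were lower, with a log2FC of −0.28 for Syt1 (adjusted p = 0.0326 in edgeR). Of 7 choroid plexus markers, 0 were called higher and 1 lower, Ttr (log2FC −0.88, adjusted p = 0.0163 in edgeR). The log2FC was negative for 5 of the 7 and positive for 2, with a median of −0.18. Among 8 oligodendrocyte markers and 6 endothelial markers 0 were called, and 3 and 0 of them, respectively, had a p under 0.05 before adjustment.

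Within the groups, the clock genes differed widely in how far single mice lay apart. The SD of log2 CPM (CPM being counts scaled to library size, here after TMM scaling) was highest for Ciart, with 0.28 for EAE and 0.26 for PBS, and for Per1, with 0.26 and 0.25, respectively. It was lowest for Nr1d2, with 0.08 in both groups. The median SD over the 10 genes was 0.17 for EAE and 0.16 for PBS, and over the 14759 mRNAs with a mean of at least 1 CPM it was 0.17 and 0.15. The median SD of the clock genes was therefore near that of these mRNAs. The mRNAs were not matched to the clock genes in count level, on which the SD also depends.

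EAE 4 and PBS 4 stood apart. Of the 9 clock genes other than Arntl, all 9 lay below the group mean in EAE 4 and all 9 in PBS 4. By FPKM, EAE 4 was the lowest EAE library for 8 of the 9 and PBS 4 the lowest PBS library for 6 of the 9. In EAE 4, Ciart lay 0.64 below its group mean on the log2 scale, Per1 0.45 below and Dbp 0.40 below. In PBS 4 the deviations were −0.52 for Per1, −0.43 for Ciart and −0.36 for Dbp. Arntl lay above its group mean in both libraries, by 0.04 in EAE 4 and by 0.12 in PBS 4. PBS 2 lay below its group mean for 8 of the 9 genes, by 0.39 for Ciart and by 0.33 for Per2, with a GC index (a measure of base composition, defined next) of 0.05, and it was the lowest PBS library for Per2 and Nr1d2. In the other 13 libraries at most 6 of the 9 genes lay below the group mean. EAE 5 had the highest Per2 of all libraries with a low Nr1d1, and PBS 3 joined low Dbp and Nr1d1 to the highest Per1.

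The libraries also differed in base composition, and this moved with several of the clock genes. A GC index was taken as the median deviation of log2 CPM of the fifth of mRNAs richest in GC minus that of the fifth poorest in GC, with the group mean removed. It was −0.23 in EAE 4 and −0.21 in PBS 4, and the other 14 libraries had −0.09 to 0.15. Over the 16 libraries, which share depth and preparation with the index, its Pearson r was 0.77 with Tef, 0.76 with Dbp, 0.75 with Nr1d1, 0.72 with Per1 and 0.71 with Ciart. The r was 0.60 with Bhlhe41, 0.58 with Per3, 0.08 with Nr1d2, 0.00 with Per2 and −0.47 with Arntl. For 3 genes the r differed widely between the groups, with 0.96 for EAE and −0.03 for PBS in Per3, 0.41 and 0.81 in Bhlhe41, and −0.25 and −0.70 in Arntl. Thus 5 of the 10 clock genes had an r beyond 0.7 in size, as did 13.7% of the 14759 mRNAs. The transcripts of these genes held 61.6% GC in Dbp, the most of the 10, and 41.8% in Nr1d2, the least. The r did not rise steadily with GC content. Tef, with the highest r, held 53.1%, and Per2, with an r of 0.00, held 54.3%. These r values are descriptions without a test, and the part of base composition in the spread between libraries was not tested. For a term in edgeR, the GC index was taken with the mean of all 16 libraries removed and not the group mean. In that form it was −0.25 in EAE 4 and −0.21 in PBS 4, and it can also take up a difference between the groups. With this term Per3 was called higher as 1 of the 10 genes (log2FC 0.24, adjusted p = 0.0102 in edgeR), against 3.30% of all mRNAs. Without EAE 4 and PBS 4 the result for Per3 was 0.26 (adjusted p = 0.0101 in edgeR), and again no other clock gene was called, against 2.78% of all mRNAs called higher and 4.55% called lower. Both alternatives were chosen after the data were seen.

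**Figure D4:**
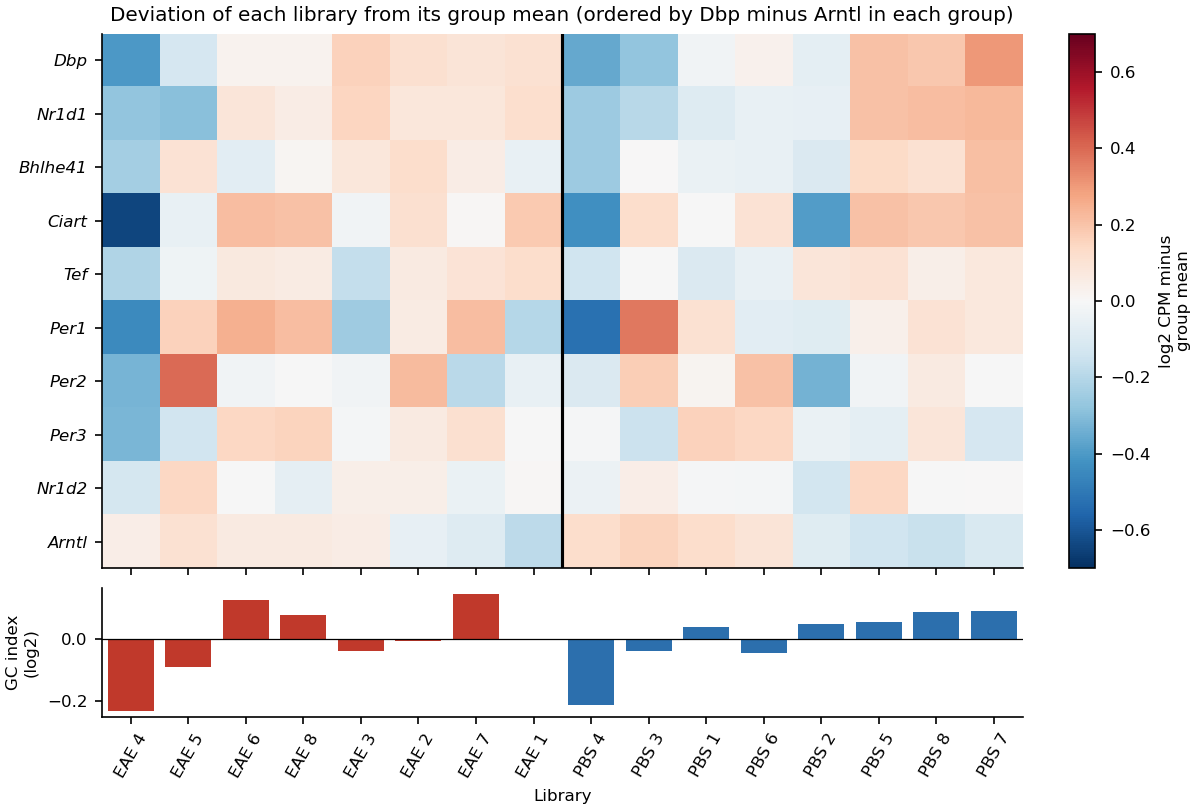
Deviation of log2 CPM from the group mean for the 10 clock genes (rows) in the 16 libraries (columns, ordered within each group by Dbp minus Arntl), with the GC index of each library as bars underneath on a log2 scale. EAE 4 and PBS 4 open the groups with low values (blue) in the 9 genes other than Arntl and with the lowest GC index, −0.23 and −0.21.

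Dbp and Arntl RNA peak at opposite phases of the clock, and their difference was taken in each library. The log2 CPM of Dbp minus that of Arntl was −0.43 ± 0.24 (SD, n = 8) for EAE and −0.47 ± 0.35 for PBS. Its range was −0.88 in EAE 4 to −0.14 in EAE 1 and −0.95 in PBS 4 to −0.06 in PBS 7. EAE 4 and PBS 4 were thus the lowest of their groups both in this difference and in the GC index, with which Dbp had an r of 0.76. Clock phase and base composition cannot be told apart here, and since the hour of harvest is not given, the differences between mice were not assigned to times of day.

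Within PBS-treated mice, libraries with more Arntl RNA had less Nr1d1 RNA. Pearson's r of the log2 CPM values was −0.88 over 8 libraries (p = 0.00377 in the exact two-sided permutation test, 0.0226 after adjustment over 6 relations). Spearman's rho was −0.83 (exact permutation p = 0.0154, adjusted 0.0923). Without the 2 libraries farthest from the median of Arntl, r was −0.82 (exact permutation p = 0.0292). On library totals without TMM scaling r was −0.77 (exact permutation p = 0.0649), so the call depended on the scaling. PBS 5, 7 and 8 lay together at high Nr1d1 and low Arntl. These are also 3 of the 6 libraries most alike, and 3 and 5 libraries are too few for an r of their own. With the means of these 3 and of the other 5 libraries removed, r was −0.53 (permutation p = 0.183), and the relation no longer passed the threshold. With the means of replicate numbers 1 to 4 and 5 to 8 removed, r was −0.84 (permutation p = 0.00677). After a line on the GC index was taken off both genes, r was −0.75 (permutation p = 0.0304). Values with means or a line removed are not freely exchangeable between libraries, so permutation p-values on them are approximate, here and below. With each library left out, r was −0.95 to −0.85, and the unadjusted exact permutation p was under 0.05 in 8 of 8 fits.

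For Arntl and Dbp within PBS-treated mice, r was −0.78 (exact permutation p = 0.0344, adjusted 0.0688) and rho was −0.74 (exact permutation p = 0.0458, adjusted 0.137). Without the 2 libraries farthest from the median of Arntl, r was −0.68 (exact permutation p = 0.161). The relation did not pass the threshold after adjustment. With the set means removed, r was −0.31 (permutation p = 0.483), and with the means of numbers 1 to 4 and 5 to 8 removed it was −0.60 (permutation p = 0.115). Within EAE mice the values were in the same direction but did not pass. For Arntl and Nr1d1, r was −0.49 (exact permutation p = 0.167, adjusted 0.250) and rho was −0.38 (exact permutation p = 0.360, adjusted 0.540). For Arntl and Dbp, r was −0.41 (exact permutation p = 0.307, adjusted 0.369) and rho was −0.48 (exact permutation p = 0.243, adjusted 0.486). Without the 2 libraries farthest from the median of Arntl, r in EAE mice was −0.42 for Nr1d1 and −0.29 for Dbp. Whether the relations differ between EAE and PBS-treated mice was not tested.

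**Figure D5:**
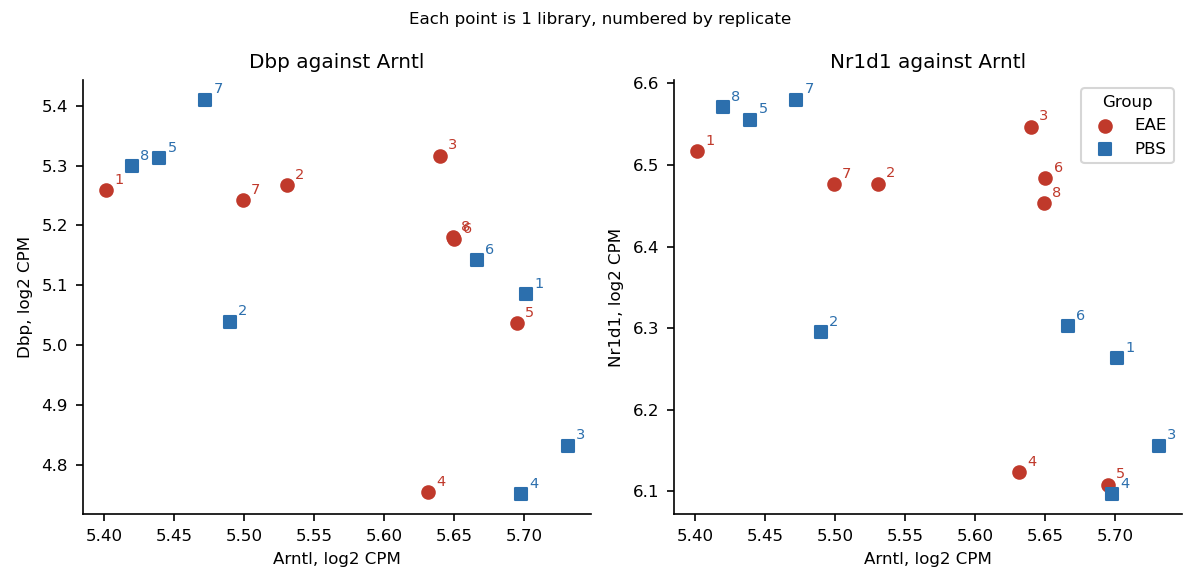
Log2 CPM of Dbp (left) and Nr1d1 (right) against that of Arntl, with 1 point per library numbered by replicate, EAE as red circles and PBS as blue squares. PBS 5, 7 and 8 lie at the upper left of both panels, and EAE 4, PBS 3 and PBS 4 are among the 4 lowest libraries of both.

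For Dbp and Per3, both outputs of the loop, the relation within EAE mice did not pass after adjustment. The r was 0.80 (exact permutation p = 0.0309, adjusted 0.0688), whereas rho was 0.21 (exact permutation p = 0.619, adjusted 0.743). The r rested on EAE 4, without which it was 0.33 (exact permutation p = 0.483). Without the 2 libraries farthest from the median of Dbp, EAE 4 and EAE 5, r turned to −0.91 over 6 libraries (exact permutation p = 0.0194). In PBS-treated mice r was 0.08 (exact permutation p = 0.837, adjusted 0.837) and rho was −0.07 (exact permutation p = 0.882, adjusted 0.882). Without the 2 farthest libraries r in PBS-treated mice was 0.42 (exact permutation p = 0.410).

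The other pairs are given as descriptions over the 16 libraries with the group means removed. Among pairs of the 10 genes, Dbp and Nr1d1 had the highest r, 0.93 (0.89 in EAE libraries and 0.96 in PBS libraries). Nr1d2 had an r of 0.74 with Per2 and of 0.17 with its paralog Nr1d1. Ciart had an r of 0.74 with Dbp, 0.73 with Bhlhe41 and 0.70 with Per1. Among the other clock genes, Csnk1e, a kinase of the PER proteins, had an r of 0.93 with Nr1d1, and Bhlhe40 had 0.89. All of these points share library, depth and base composition.

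Dbp was also followed closely by mRNAs that are not clock genes. Of 14758 mRNAs with a mean of at least 1 CPM, 298 had an r above 0.8 with Dbp over the 16 libraries with group means removed, and 147 had an r under −0.8. The highest were Sec24c, a subunit of the COPII vesicle coat (0.95), Brd2, a bromodomain protein (0.95), Zfp653 (0.93), Bcat1, an aminotransferase of branched-chain amino acids (0.93), and Dnmt1, the maintenance DNA methyltransferase (0.93). The lowest were Adgrl3, an adhesion receptor of neurons (−0.96), Sorl1, a sorting receptor (−0.96), Grm5, a glutamate receptor (−0.95), Clk1, a kinase of splicing factors (−0.94), and Tmem56 (−0.93). The transcripts of the 5 highest held 47.2% to 61.1% GC and those of the 5 lowest 40.9% to 50.7%.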

How the data were processed

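RNA-seq was performed on 16 libraries, 8 EAE and 8 PBS, with 1 mouse per library. Per the labels and the study's methods, stranded total RNA libraries without ribosomal RNA were sequenced in paired ends and aligned to GRCm38 with HISAT2 (2.1.0). The authors deposited raw counts per mRNA from HTSeq (0.11.2) and the FPKM values of the same mRNAs; the submitters' processing notes also name DESeq2 (1.22.2). The strand setting of the counting is not given in the sources used here. FPKM values equalled counts divided by the library total and a length fixed per mRNA. No column of other samples was present (0 columns).

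Here, EAE was compared with PBS on the raw counts in R 4.3.3 with edgeR 4.0.16 (TMM, quasi-likelihood test, Benjamini-Hochberg adjustment over the 17885 mRNAs whose counts summed to 16 or more), tested first on simulated counts. Total counts of 24587443 to 34184576 per library set the counting precision. Alternatives used DESeq2 1.42.0 and limma 3.58.1 on log2(FPKM + 0.1) or log2(FPKM + 1), other scalings and filters, library sets and each library left out. FPKM values of single genes and relations between 2 genes were tested with exact permutation tests. GC content came from the longest protein-coding GENCODE vM21 transcript of each symbol, found for 95.9% of the 14761 mRNAs with a mean of at least 1 CPM. Promoter windows came from RefSeq on GRCm38.p6. The genes named are the 10 clock genes, genes of the other lists with an adjusted p under 0.05, 8 further clock genes chosen by name (Clock, Npas2, Cry1, Cry2, Nfil3, Hlf, Rora and Bhlhe40) and the 5 mRNAs with the highest and the 5 with the lowest r with Dbp. Arntl2 and Csnk1e were named after their values were seen. The members and lists were chosen with earlier results of these data known. Nothing states that the mice of a group were independent of litter or cage, so p-values measure the spread between these libraries.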

Additional observations from a re-analysis of the deposited data

Results flagged for a closer look

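In each group of 8 libraries, the gap of the highest and the lowest library to its neighbour was compared with the range of the group (Dixon's criterion) for the FPKM of the 10 clock genes, for Dbp minus Arntl and for the GC index. Of 24 such groups 2 held a library that stood apart, and chance gives about 1 in 20. Ciart had 5.35 FPKM in EAE 4, and the gap to the next EAE library was 0.632 of the range. The GC index of PBS 4 was −0.21, with a gap of 0.551 of the range.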

How the results depend on the processing

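Of the 10 clock genes, 1 (Per3) was called higher with DESeq2, in edgeR on library totals alone, with a term for the 6 libraries most alike, with a term for the GC index and without EAE 4 and PBS 4. Within the 6 libraries most alike, 2 were called higher (Per3 and Arntl). None of the 10 was called lower under any alternative run. With each library left out, 0 to 1 were called higher, and the 1 was Per3, without EAE 4 or EAE 5. The log2FC of Per3 was 0.19 to 0.27 in those fits.

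Several of the smaller log2FC values changed sign. On library totals alone, which raised the median log2FC of all mRNAs by 0.05, the log2FC was 0.031 for Nr1d2 and 0.020 for Per2. With limma the log2FC of Nr1d2 was 0.031 on log2(FPKM + 0.1) and 0.030 on log2(FPKM + 1), and that of Per2 was 0.013 and 0.012. Within the 6 libraries most alike it was −0.14 for Dbp, −0.096 for Nr1d1, −0.065 for Bhlhe41 and 0.031 for Per1. In the remaining 5 libraries per group it was 0.028 for Nr1d2, 0.017 for Per2 and −0.081 for Arntl. With the GC index term Arntl was at −0.0075. Among replicate numbers 1 to 4 alone the log2FC was −0.11 for Arntl, and among numbers 5 to 8 alone it was −0.13 for Dbp, −0.11 for Nr1d1 and 0.053 for Per1. With each library left out, the log2FC ranged from −0.0087 to 0.090 for Dbp, from −0.040 to 0.00081 for Nr1d2, from −0.093 to 0.017 for Per2 and from −0.016 to 0.036 for Arntl. The difference in mean FPKM then ranged from −0.268 to 0.389 for Per2 and from −1.80 to 0.739 for Tef. It was 0.927 to 1.66 for Ciart and 0.827 to 1.38 for Bhlhe41. Without EAE 4 the unadjusted exact permutation p of Ciart was 0.00451. For Bhlhe41 the unadjusted exact permutation p was 0.0211 to 0.0486 without EAE 4, PBS 5 or PBS 7. These p-values were picked from the fits of all the clock genes with each library left out. They were not adjusted for that choice, and the share of all mRNAs passing is not given here. In edgeR without EAE 4 the adjusted p was 0.114 for Ciart and 0.257 for Bhlhe41, and neither was called. The cause of the changes between fits was not tested.

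Of all mRNAs, 118 were called higher and 315 lower. DESeq2 gave 299 higher and 611 lower, library totals alone 226 and 103, the term for the 6 libraries 242 and 526, these 6 libraries alone 1896 and 2251, the other 5 of each group 8 and 5, the GC index term 590 and 968, the fit without EAE 4 and PBS 4 496 and 810, replicate numbers 1 to 4 alone 10 and 6, and numbers 5 to 8 alone 17 and 24. Limma gave 73 lower on log2(FPKM + 0.1) and 80 on log2(FPKM + 1). With each library left out, 39 to 502 were higher and 104 to 815 lower, both most often without EAE 4.

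For Arntl and Dbp within PBS-treated mice, r was −0.68 without the 2 libraries farthest from the median of Arntl, −0.66 on log2(FPKM + 0.1), −0.66 on library totals alone, −0.50 after a line on the GC index, −0.31 with the means of the 3 libraries most alike and the other 5 removed, −0.60 with the means of numbers 1 to 4 and 5 to 8 removed, and −0.85 to −0.72 with each library left out, where the exact permutation p was over 0.05 without PBS 3, 4, 5, 7 or 8. For Arntl and Nr1d1 within PBS-treated mice it was −0.77 on log2(FPKM + 0.1), −0.77 on library totals alone and −0.53 with the set means removed. It was −0.75 after a line on the GC index and −0.95 to −0.85 with each library left out. For Dbp and Per3 within EAE mice it was −0.91 without the 2 farthest libraries, 0.55 after a line on the GC index and 0.33 to 0.88 with each library left out (not passing without EAE 4 or EAE 5), and within PBS-treated mice it was −0.22 to 0.37 in the latter fits and −0.011 with the means of numbers 1 to 4 and 5 to 8 removed.

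Outside the clock genes, the calls of Hspa8, Gad1, Ttr, S100a8, S100a9, Ngp and Ltf held in all 16 fits with a single library left out. Those of Trem2 held in 11, Pdk4 in 10, Syt1 in 9, Gfap in 8 and Ddit4 in 3. Limma ended the calls of Hspa8, Ttr, Pdk4, Syt1 and Ddit4 in both settings. Library totals alone ended those of Syt1 and Ddit4, the robust fit that of Gfap, and the other scaling and both other filters that of Ddit4. Within the remaining 5 libraries per group only Gfap and Ttr of these 12 genes were called. Within the 6 libraries most alike the calls of Trem2 and Gfap were lost, and the log2FC was −0.30 for Ttr and −0.047 for Gfap. Among replicate numbers 1 to 4 alone Gfap and Ttr were called, and among numbers 5 to 8 alone S100a9, Ngp and Ltf. Of the other clock genes named, Arntl2 was called without EAE 5 (adjusted p = 0.0461 in edgeR), and Npas2 and Arntl2 were called within the 6 libraries most alike.

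The deviations of same-numbered libraries from their group means had an r over 0.1 for 3 of 8 numbers only (0.63, 0.25 and 0.39 for numbers 4, 7 and 8). The bound of 0.1 was a choice without a test, so it cannot decide whether the numbers pair the libraries. Numbers 1 to 4 and 5 to 8 differed in the mRNAs detected, and with a term for this split, chosen after the data were seen, 0 of 10 clock genes were called and the adjusted p of Per3 was 0.0626 in edgeR. With the replicate block, 0 of 10 clock genes were called, the adjusted p of Per3 was 0.0506, and 517 mRNAs were called in all.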
